A study of Mus musculus with 4 samples.

Results

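Iron handling was followed through 10 genes for the uptake, storage and export of iron in RAW 264.7 cells. This transformed mouse line resembles macrophages and differentiates into multinucleated osteoclasts under RANKL, a TNF family ligand, and M-CSF, the growth factor of the macrophage lineage. The genes were Tfrc, Slc11a2, Slc11a1, Steap3, Steap4, Fth1, Ftl1, Slc40a1, Hmox1 and Ireb2. A gene was read through the probe sets that carry it as their only symbol, the one with the highest mean where there were several. Of the 10 genes, 9 had such a probe set, 1 each, among 19938 genes on the array, and Slc11a1 was not analysed here. The 4 groups were miR-155 vector cells after 72 h of RANKL and M-CSF, unstimulated miR-155 vector cells, control-vector cells after the same 72 h, and unstimulated control-vector cells. The series text gives 20 ng/ml of cytokine without saying whether this holds for each one, and its wild-type cells are described sample by sample as carrying a control vector. The sources used here do not say whether the transfected cells were a clone or a pool. Each group has 1 array, so differences are given without replicate error or test, and the precision is limited by this number of arrays.

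Cells take up transferrin-bound iron through the transferrin receptor, reduce it in the endosome with a Steap reductase and move it to the cytosol through the transporter encoded by Slc11a2. Iron that is not used is stored in ferritin, a shell of heavy and light chains, or leaves through ferroportin, the product of Slc40a1. Iron regulatory proteins, one of them encoded by Ireb2, bind hairpins in these mRNAs when iron is scarce, which stabilises Tfrc mRNA and holds back translation of ferritin and ferroportin. In mouse osteoclast cultures, transferrin-dependent iron uptake is known to go along with mitochondrial biogenesis.

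The mature 5p form of miR-155, the microRNA of the vector, is shown with its seed, bases 2 to 8, in capitals, because target mRNAs are recognised through it. The arrays do not read mature microRNAs, so they do not check the vector. The sequence is that of RefSeq, build GRCm38.p6, plus strand of chr16:84714143-84714165.
mmu-miR-155-5p: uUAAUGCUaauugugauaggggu
Promoter windows from RefSeq (GRCm38.p6) were at hand for 7 of the 10 genes, with 12 listed starts in all. Slc11a2, Slc40a1 and Hmox1 had none there. In the 250 bases before each start, 3 motifs were searched on both strands: ACGTG, the core of hypoxia response elements; TGACG, the core of cAMP response elements; and TGACNNNGC, the core of antioxidant response elements, which can overlap TGACG. They matched 16.6%, 17.8% and 10.2% of 32851 promoter windows. ACGTG and TGACG each matched 1 of the 7 genes, Tfrc, in 1 of the 12 windows, and TGACNNNGC matched 0 of them. None of these shares of the 12 windows is above that of all windows. The Tfrc stretch is shown because it holds both matches, without overlap, in a gene that was higher after stimulation with either vector. It spans 232 to 203 bases before the downstream one of the 2 listed Tfrc starts, on the plus strand of chr16:32608890-32608919, with the matches in capitals. The upstream start lies inside it. A match is a description of the letters and not a binding site.
Tfrc upstream stretch: gtgtACGTGcggaaggaagTGACGtagatc

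All values are log2 expression values. A floor of 4.25, the 95th percentile of 1210 olfactory and vomeronasal receptor probe sets, marks the signal of genes not expected in myeloid cells. A gene is called above the floor if at least 1 of its 4 values exceeds it. Of the 9 genes, 8 were above the floor, and Steap4 was not. The same receptor probe sets gave a noise reference for each comparison, the size of difference below which 95% of them stayed: 0.41 for stimulation with the miR-155 vector, 0.48 for stimulation with the control vector, 0.47 for miR-155 with stimulation and 0.37 without. It comes from dim probe sets and does not stand for replicate error. A gene is counted as higher or lower at 1.5-fold or more, a log2 difference of 0.58.

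Most osteoclast markers were higher after stimulation with both vectors. With the miR-155 vector 13 of 15 were higher by 1.5-fold or more (median 3.06), against 3.43% of all genes above the floor. With the control vector 15 of 15 were higher (median 4.54), against 12.4%. Macrophage markers kept 11 of 12 genes above the floor on each array. Their median difference with stimulation was -0.29 with the miR-155 vector and -3.34 with the control vector. Without stimulation 3 of the 15 osteoclast markers were lower in miR-155 than control cells (Ctsk at -2.45) and 1 was higher. The shares of all genes were 3.15% and 1.18%. Of 11 macrophage markers above the floor, 2 were lower and 1 higher. With stimulation all 15 osteoclast markers were lower (median -1.76), against 13.6% of all genes. Of the macrophage markers 9 of 11 were higher (median 2.90), against 12.4%. Their part in the iron results was not tested. The stimulated control array stood apart: it correlated with the other 3 at 0.908 to 0.937 across 13545 genes above the floor, while those 3 correlated with each other at 0.982 to 0.989. Every difference between the vectors with stimulation, and every stimulation difference of the control vector, rests on that array. Erythroid markers, which would come with cells rich in iron and heme, summed to 129 to 144 on the linear scale across the 4 arrays. None of the 5 above the floor differed by 1.5-fold in any of the 4 comparisons between arrays, nor did any of the 4 T and B cell and 3 granulocyte markers above it. Of 7 fibroblast and osteoblast markers above the floor, Dcn alone did, at 5.04 in stimulated control cells and below the floor on the other 3 arrays; the part of such markers in the results was not tested.

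With stimulation the uptake genes Tfrc and Slc11a2 and the export gene Slc40a1 were higher with both vectors, Steap3 was higher with the control vector alone past 1.5-fold, and both ferritin chains stayed within the noise reference. With the miR-155 vector 3 of the 8 genes above the floor were higher by 1.5-fold or more, against 3.43% of all genes above the floor, and 0 were lower, against 3.74%. The 3 include Slc40a1, whose unstimulated miR-155 value lay below the floor, and 2 genes were left with values below the floor set to it. With the control vector 4 of 8 were higher, against 12.4% of all genes, and 0 were lower, against 15.2%. The genes were chosen with earlier results of these data known, so these counts are descriptions and not a test. The median of the 8 was 0.19 with the miR-155 vector, where all genes had -0.03, and 0.60 with the control vector, where all genes had -0.02. Fewer cells of a type and less RNA per cell cannot be told apart in such bulk samples. The plot of levels shows each gene on each array.

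**Figure D1:**
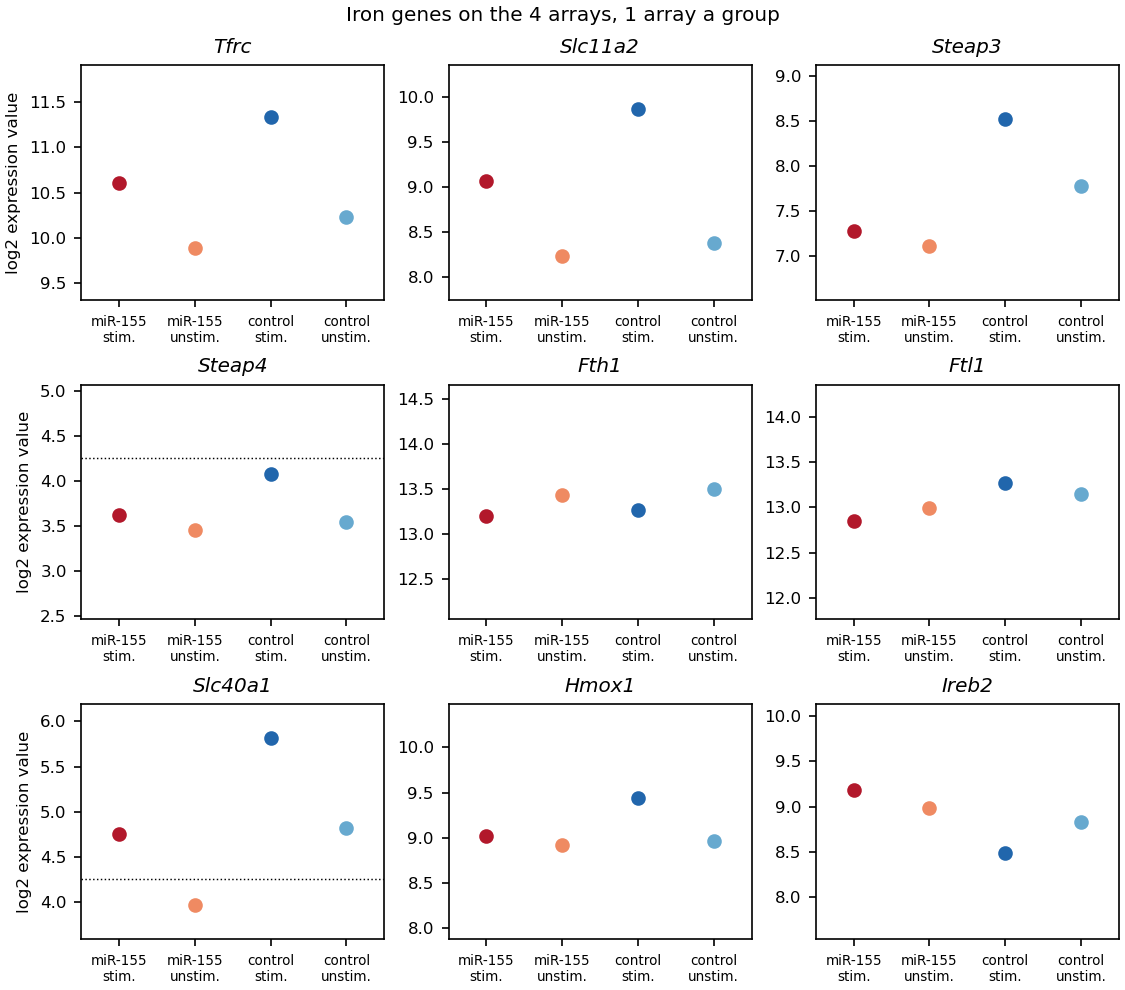
Log2 expression value of the 9 measured iron genes (y axis, each panel spanning the same range) on the arrays of stimulated and unstimulated miR-155 cells and stimulated and unstimulated control cells (x axis), 1 point per array. The dotted line is the floor of 4.25. Tfrc, Slc11a2, Steap3 and Slc40a1 peak in the stimulated control cells, Fth1 and Ftl1 vary by no more than 0.43, and Steap4 stays below the floor.

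Tfrc encodes the transferrin receptor, the entry route of transferrin-bound iron. Its value was 10.60 in stimulated and 9.88 in unstimulated miR-155 cells, and 11.34 in stimulated and 10.23 in unstimulated control cells. Stimulated cells were above unstimulated cells with either vector, and the stimulated control array was the highest. The stimulation difference was 0.72 (1.65-fold) with the miR-155 vector and 1.11 (2.16-fold) with the control vector. Below the stimulated control cells, the steps down to stimulated miR-155 cells (0.74), then unstimulated control cells (0.38), then unstimulated miR-155 cells (0.35) passed the noise reference of their pair of arrays only at the first.

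Slc11a2, the divalent metal transporter that carries iron out of endosomes, had the largest stimulation difference of the genes measured with both vectors. It stood at 9.07 in stimulated and 8.23 in unstimulated miR-155 cells, and at 9.86 in stimulated and 8.38 in unstimulated control cells. The order of the arrays was that of Tfrc, and the unstimulated cells of both vectors lay within the noise reference of each other. Stimulated cells were higher by 0.83 (1.78-fold) with the miR-155 vector and by 1.48 (2.79-fold) with the control vector.

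Steap3 and Steap4 encode metalloreductases that turn ferric into ferrous iron. Steap3, the endosomal ferrireductase of the transferrin cycle in mouse erythroid cells, had 7.29 in stimulated and 7.12 in unstimulated miR-155 cells, against 8.52 in stimulated and 7.79 in unstimulated control cells. Both control arrays were above both miR-155 arrays. The stimulation difference was 0.17 with the miR-155 vector, inside the noise reference, and 0.73 (1.66-fold) with the control vector. Steap4 lay between 3.46 and 4.07 and below the floor on all 4 arrays, so no fold is given for it.

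Slc40a1 encodes ferroportin, the iron exporter of macrophages. It was dim, with 4.75 in stimulated and 3.97 in unstimulated miR-155 cells, and 5.81 in stimulated and 4.82 in unstimulated control cells. The unstimulated miR-155 array was below the floor, so the stimulated miR-155 cells were at least 1.41-fold higher, the brighter value against the floor. The measured difference of 0.78 counts as past 1.5-fold and the bound does not. Stimulated control cells were higher by 1.00 (1.99-fold), and both of those arrays were above the floor.

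The storage genes showed the smallest spread. Fth1, the ferritin heavy chain with ferroxidase activity, was at 13.20 in stimulated and 13.43 in unstimulated miR-155 cells, and at 13.26 in stimulated and 13.50 in unstimulated control cells. Its stimulation differences, -0.23 with the miR-155 vector and -0.24 with the control vector, were inside the noise reference. Ftl1, the light chain that helps to lay down the iron core, was at 12.85 in stimulated and 13.00 in unstimulated miR-155 cells, against 13.27 in stimulated and 13.15 in unstimulated control cells. Its stimulation difference was -0.15 with the miR-155 vector and 0.12 with the control vector. A further 4 probe sets list Ftl1 among several symbols and were not used. Ferritin genes have near-identical pseudogenes whose RNA may reach the same probes, so these values are uncertain, and they sit near the top of the scale, where the dim noise reference may not apply. The arrays read mRNA, not ferritin protein.

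Hmox1 encodes heme oxygenase, which frees iron from heme. It stood at 9.02 in stimulated and 8.92 in unstimulated miR-155 cells, and at 9.44 in stimulated and 8.97 in unstimulated control cells. Of the 4 arrays, 3 lay within 0.10 of each other, and the stimulated control array was above them. The stimulation difference was 0.10 with the miR-155 vector and 0.47 with the control vector, just inside the noise reference.

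Ireb2 encodes iron regulatory protein 2. It was at 9.18 in stimulated and 8.98 in unstimulated miR-155 cells, and at 8.48 in stimulated and 8.82 in unstimulated control cells. The stimulated control array was the lowest of the 4, and no step between neighbours in the order passed the noise reference, although the ends of the order were 0.70 apart. The stimulation difference was 0.20 with the miR-155 vector and -0.34 with the control vector.

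Where the vectors differed, most iron genes had lower values in miR-155 cells. Osteoclast and macrophage markers differed between the vectors as well, as given above. Without stimulation 2 of the 8 genes above the floor were lower by 1.5-fold or more, against 3.15% of all genes, and 0 were higher, against 1.18%. These were Steap3 (-0.67, 1.59-fold) and Slc40a1, whose measured difference was -0.85 and whose unstimulated miR-155 value lay below the floor, which makes it at least 1.48-fold lower. Tfrc (-0.35), Slc11a2 (-0.15), Ftl1 (-0.15), Fth1 (-0.07), Hmox1 (-0.05) and Ireb2 (0.16) stayed inside the noise reference.

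With stimulation, 4 of the 8 were lower in miR-155 cells, against 13.6% of all genes, and 1 was higher, against 12.4%. Steap3 was 2.35-fold lower (-1.23), Slc40a1 2.09-fold lower (-1.06), Slc11a2 1.74-fold lower (-0.80) and Tfrc 1.67-fold lower (-0.74). Ireb2 was 1.62-fold higher (0.70). Ftl1 (-0.43), Hmox1 (-0.42) and Fth1 (-0.06) stayed inside the noise reference. The median of the 8 was -0.58 with stimulation, where all genes had -0.03, and -0.15 without it, where all genes had -0.00. This comparison and the stimulation comparison of the control vector share the stimulated control array, so their values are not independent of each other.

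**Figure D2:**
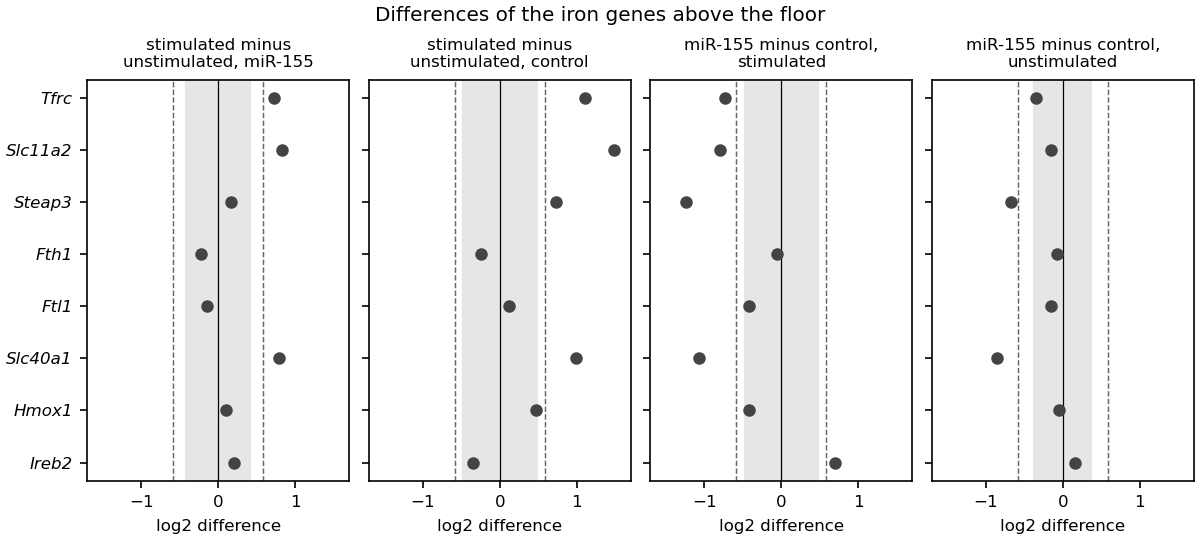
Log2 difference (x axis) of the 8 iron genes above the floor (y axis) in 4 comparisons, 1 point per gene from 1 array against 1. Grey bands are the noise reference of each comparison and dashed lines mark 1.5-fold. Tfrc, Slc11a2 and Slc40a1 lie right of the dashed line with stimulation for both vectors, and Steap3 and Slc40a1 lie left of it for miR-155 with and without stimulation.

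The difference of the stimulation responses, miR-155 minus control vector, compares pairs that share no array. It draws on all 4 arrays, the stimulated control array that stood apart among them. It was negative for 6 of the 8 genes, with a median of -0.32, where all genes had -0.03. Only Slc11a2 was past 1.5-fold (-0.65), or 1 of 8, where 28.4% of all genes above the floor were past it in either direction. With arrays centred on their medians, Steap3 passed as well. Steap3 (-0.56), Ireb2 (0.54), Tfrc (-0.39), Hmox1 (-0.37), Ftl1 (-0.27), Slc40a1 (-0.21, with 1 of its 4 values below the floor) and Fth1 (0.01) lay inside the noise reference for this difference, 0.64. The miR-155 response was smaller in size than the control response for Slc11a2, only just past the noise reference (-0.65 against 0.64). It was also smaller, within that reference, for Tfrc, Steap3, Hmox1 and Fth1. For Ireb2 and Ftl1 the responses had opposite signs. The miR-155 response of Slc40a1 has only a lower bound (0.50), so its size was not ranked against the control response, and its difference of the responses was -0.50 with values below the floor set to it.

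**Figure D3:**
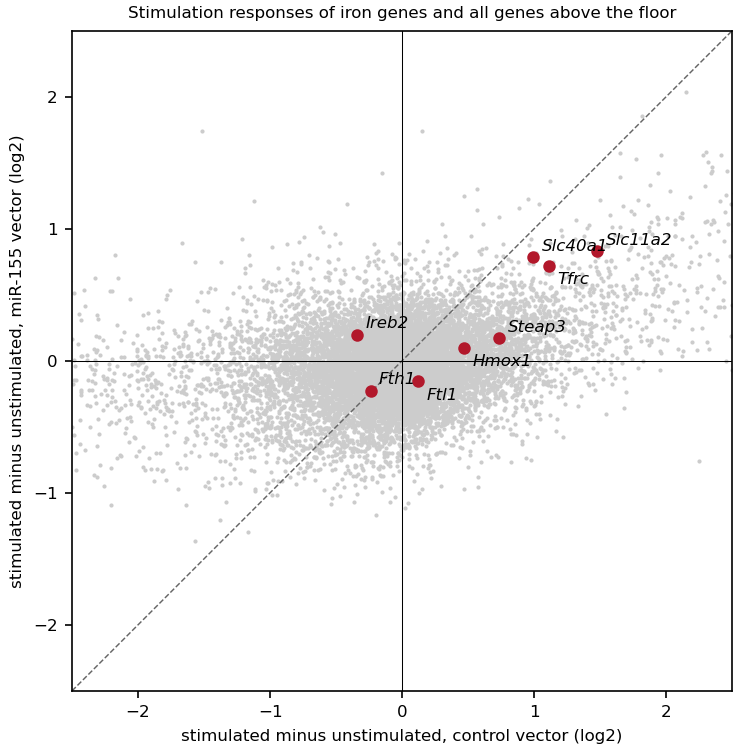
Stimulation response with the control vector (x axis, log2) against that with the miR-155 vector (y axis, log2) for genes above the floor (grey) and the 8 iron genes (red). The dashed line marks equal responses, and 236 genes lie outside the axes. Slc11a2, Tfrc, Steap3, Hmox1 and Slc40a1 lie right of and below the line among positive values on both axes. Slc40a1 is at its measured values, 1 of them below the floor. Fth1 lies next to the line, and Ireb2 is negative on the x axis and positive on the y axis.

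The 4 iron genes whose values spanned 1 or more were set against all other genes above the floor by the root mean square distance of their 4 values, each gene centred on its mean. Nearest to Tfrc were Decr2 (0.020), Snx8 (0.023) and Arhgap18 (0.048). Nearest to Slc11a2 were Sphk1 (0.047), Pex10 (0.064) and Agpat4 (0.068), to Slc40a1 Arrdc4 (0.079), Tank (0.083) and Dram2 (0.088), and to Steap3 Cd274 (0.012), Tmem154 (0.017) and Abr (0.030). With only 4 arrays many genes come close: 513 genes lay within 0.25 of Tfrc and 169 within 0.25 of Slc40a1.

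The counts that follow are of genes past 1.5-fold with stimulation and are read against the shares of all genes above the floor, 3.43% higher and 3.74% lower with the miR-155 vector, and 12.4% higher and 15.2% lower with the control vector. The background thus differs between the vectors, and a list whose count is near it shows nothing about that list. Among other genes of iron entry and trafficking, 11 of 15 were above the floor. With the miR-155 vector 0 were higher and 0 lower with stimulation, and with the control vector 1 was higher and 2 lower, shares near those of all genes (12.4% and 15.2%). Mcoln1, a lysosomal channel that releases iron and calcium, differed with stimulation by 0.27 with the miR-155 vector and 0.90 with the control vector. Hfe, the hemochromatosis protein that binds the transferrin receptor, differed by -0.25 with the miR-155 vector and -1.63 with the control vector, and was 1.22 higher in stimulated miR-155 than stimulated control cells. Slc39a14, a transporter of iron not bound to transferrin, differed by -0.47 with the miR-155 vector and -0.87 with the control vector. Slc39a8, a related transporter, was below the floor on both miR-155 arrays, and stimulated miR-155 cells were at least 1.32-fold lower than stimulated control cells.

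Of the genes for iron chaperones, sensing and release, 11 of 15 were above the floor. With stimulation 1 was higher and 0 lower with the miR-155 vector, against 3.43% and 3.74% of all genes. With the control vector 3 were higher and 1 lower, against 12.4% and 15.2%, and 1 of the 3 was Hamp, whose unstimulated control value lay below the floor. Ncoa4, the receptor that delivers ferritin to lysosomes for breakdown, had 8.79 in stimulated and 8.20 in unstimulated miR-155 cells, against 9.98 in stimulated and 8.65 in unstimulated control cells. Its stimulation difference was 0.59 with the miR-155 vector and 1.34 with the control vector, and stimulated miR-155 cells were 2.29-fold below stimulated control cells (-1.19). Its other probe set gave nearly the same values. Aco1, which encodes iron regulatory protein 1, differed by 0.10 with the miR-155 vector and 0.63 with the control vector, where Ireb2 had -0.34. Fbxl5, which targets iron regulatory proteins for destruction when iron is plentiful, differed by 0.05 with the miR-155 vector and -0.60 with the control vector. Hamp, the hormone hepcidin, reached only 4.37 at its highest, and stimulated control cells were at least 1.08-fold higher, a bound that does not pass 1.5-fold.

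Of 11 heme transport and breakdown genes above the floor, 0 were higher and 1 lower with stimulation in miR-155 cells, against 3.43% and 3.74% of all genes. In control cells 2 were higher and 0 lower, against 12.4% and 15.2%, so the number higher was near the background. Slc46a1, a folate and heme carrier, differed by 0.06 with the miR-155 vector and 1.69 with the control vector, and Pgrmc1, a heme-binding membrane protein, by 0.32 with the miR-155 vector and 1.67 with the control vector. Flvcr1, a heme exporter, was at -0.66 in miR-155 against control cells with stimulation, and the heme-binding gene Hebp1 was at -0.66 without. Of 8 heme synthesis genes, 0 were higher and 0 lower with stimulation in miR-155 cells, against 3.43% and 3.74% of all genes. In control cells 3 were higher and 1 lower, against 12.4% and 15.2%. Alas1, the rate-limiting enzyme outside erythroid cells, differed by -0.09 with the miR-155 vector and 0.98 with the control vector. Ppox, a late enzyme of the pathway, differed by -0.32 with the miR-155 vector and 0.98 with the control vector. Fech, which inserts the iron, differed by 0.06 with the miR-155 vector and 0.86 with the control vector. Cpox, the enzyme before Ppox, differed by -0.55 with the miR-155 vector and -0.87 with the control vector, where Alas1, Ppox and Fech were above 0.

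Of 15 genes for mitochondrial iron and iron-sulfur cluster assembly, 1 was higher and 0 lower with stimulation in miR-155 cells, against 3.43% and 3.74% of all genes. In control cells 4 were higher and 0 lower, against 12.4% and 15.2%. The median was -0.11 with the miR-155 vector and 0.43 with the control vector. Of the cluster carriers, Isca2 differed by -0.23 with the miR-155 vector and 0.95 with the control vector, and Glrx5 by 0.04 with the miR-155 vector and 0.72 with the control vector. The scaffold gene Iscu was 0.76 higher in unstimulated miR-155 than unstimulated control cells, and its other probe set gave 0.38. Lyrm4, a partner of the cysteine desulfurase, was 0.72 higher in miR-155 than control cells with stimulation.

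Hmox1 and the ferritin genes are known targets of the activator Nrf2, encoded by Nfe2l2, and of its competitor Bach1, a reported target of miR-155. Bach1 was at 7.27 in stimulated and 7.33 in unstimulated miR-155 cells, and at 7.21 in stimulated and 7.90 in unstimulated control cells, so that unstimulated control cells alone were high. Without stimulation miR-155 cells were lower in Bach1 (-0.57, 1.49-fold) and in Nfe2l2 (-0.57, 1.48-fold), both short of 1.5-fold. Hmox1 (-0.05), Fth1 (-0.07) and Ftl1 (-0.15) were inside the noise reference in the same comparison. Whether these values are linked was not tested. Nfe2l2 stood at 8.98 in stimulated and 9.22 in unstimulated miR-155 cells, against 8.45 in stimulated and 9.79 in unstimulated control cells. Of 13 genes on the list of Bach1, Nrf2 and Nrf2 targets, 0 were higher and 0 lower with stimulation in miR-155 cells, against 3.43% and 3.74% of all genes. In control cells 1 was higher and 7 were lower, against 12.4% and 15.2%. The 7 include the regulators Bach1 and Nfe2l2 as well as targets, and the targets did not all go the same way. Among the targets the glutathione reductase gene Gsr differed by -0.47 with the miR-155 vector and -1.17 with the control vector. The malic enzyme gene Me1 differed by 0.09 with the miR-155 vector and 1.08 with the control vector. Slc7a11, the cystine importer, was 2.74-fold lower in miR-155 than control cells without stimulation (-1.45) and 1.61-fold lower with it (-0.69).

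**Figure D4:**
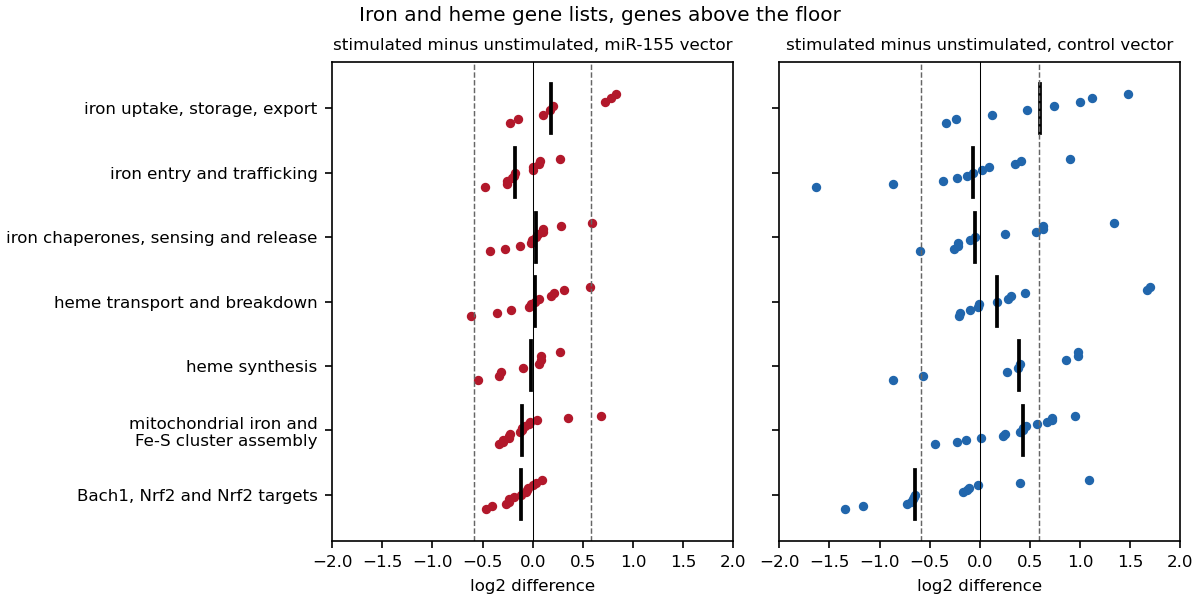
Stimulation difference (x axis, log2) of genes above the floor in each iron, heme and Nrf2 list (y axis) for the miR-155 vector and the control vector. Each point is 1 gene, black bars are list medians and dashed lines mark 1.5-fold. Points spread more widely with the control vector. There the Nrf2 list, which mixes regulators with targets, has a median of -0.65 and the 8 iron genes one of 0.60.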

How the data were processed

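Biotinylated cRNA prepared from 100 ng of total RNA was hybridised to Affymetrix mouse 1.0ST arrays, 1 for each of 4 groups of RAW 264.7 cultures, per the labels' protocols. The table deposited by the authors holds a log2 value for each probe set. Per the submitters' processing notes, RMA and Partek were used, and neither a version nor a build was given in the sources used here. The sorted values of the 4 columns differed by at most 0.218, close to the equal distributions that RMA's quantile normalization gives, which hides any change in the total RNA of a cell. The platform annotation gave 1 symbol to 21789 of 35557 probe sets, several to 1621 and none to 12147.

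Differences of log2 values were taken between single arrays, with no test. Counting was tested on simulated data. Groups follow the sample titles and descriptions. The members and gene lists were chosen with earlier results of these data known. All 10 listed genes are named. Of each other iron, heme and Nrf2 list up to 4 genes by largest difference are named, with Bach1, Nfe2l2 and Aco1 always. Marker lists are given as counts, medians or sums, with Ctsk and Dcn alone named. Alternatives covered the fold, normalization, probe set and floor. Python 3.11.15, numpy 2.4.6, pandas 2.3.3 and matplotlib 3.10.9 were used.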

Additional observations from a re-analysis of the deposited data

Results flagged for a closer look

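Of the 8 iron genes above the floor, Ireb2 and Ftl1 had stimulation differences of opposite sign with the 2 vectors. Ireb2 had 0.20 with the miR-155 vector and -0.34 with the control vector. Ftl1 had -0.15 with the miR-155 vector and 0.12 with the control vector. All these values lay inside the noise reference. The share of all genes with opposite signs was not counted, so the number of such iron genes shows nothing about them. Other genes named in the text, such as Ppox, Alas1 and Isca2, also had opposite signs, and they are singled out only where both differences passed the noise reference. This held for Nfe2l2, which was higher in miR-155 than control cells with stimulation (0.53) and lower without (-0.57). Each value rests on single arrays, and the difference between the settings was not tested.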

How the results depend on the processing

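Across 8 alternatives, of which setting values below the floor to it was chosen after seeing the data, each of the 280 single-gene values and 35 medians moved by less than the noise reference, and 33 of 40 counts stayed within 1.5 times. At 2-fold the counts of iron genes were 0 for stimulation with the miR-155 vector and 2 with the control vector, 2 for miR-155 with stimulation and 0 without, and 0 for the difference of the responses, against 3, 4, 5, 2 and 1 at 1.5-fold. With arrays centred on their medians the difference of the responses held 2 genes. With values below the floor set to it, Slc40a1 no longer counted as lower in unstimulated miR-155 cells, which left 1 gene, nor as higher with stimulation in miR-155 cells (0.50), which left 2, and its difference of the responses was -0.50 in place of -0.21. The shares of all genes were counted in the main setting only, so the counts under alternatives have no background. No paired analysis was possible because each group has 1 array. Each measured iron gene has 1 single-symbol probe set, so the choice of probe set cannot move its values. Dropping or raising the floor cannot move single-gene values either, and setting values to it moved those of Slc40a1 alone. Much of the agreement among the 280 values was thus fixed in advance. Dim values, those of Slc40a1 above all, limit what can be read.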
